A study of Mus musculus with 10 samples.

Results

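The values below are those of 10 genes of nitric oxide, arginine and polyamine metabolism, measured by bulk RNA-seq in mouse peritoneal macrophages. The genes are Nos2, the arginine transporter gene Slc7a2, the enzyme genes Ass1, Asl, Gch1, Arg1, Arg2, Odc1 and Sat1, and Ddah2. They were chosen by name from a list for this pathway, but with earlier results of these data known. They are 10 of 29700 gene rows in the count table. All 10 had a row, and 9 passed the filter on low counts (Ddah2 did not).

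Peritoneal macrophages had been elicited with thioglycollate in C57BL/6 mice aged 8 weeks, a model of recruited rather than resident peritoneal cells. The 5 control cultures are labelled untreated. The 5 ox-LDL cultures were primed with 100 ng/ml of LPS, the endotoxin of Gram-negative bacteria, and then stimulated for 16 h with oxidized low-density lipoprotein (ox-LDL) at 100 µg/ml, the modified lipoprotein that macrophages take up in atherosclerotic lesions. Since LPS was by the labels given to the ox-LDL group alone, the effects of LPS and of ox-LDL cannot be told apart here. A legend in the study leaves room for a reading in which the control cells were primed as well. Which animals gave which culture is not stated in the sources used here, so p-values measure the spread between these 5 cultures a group.

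As background, arginine is the shared substrate of inducible nitric oxide synthase, which macrophages express after contact with bacterial products and interferon, and of arginases, which split it into urea and ornithine. Nitric oxide synthesis needs arginine uptake, the cofactor tetrahydrobiopterin and, where outside arginine runs short, the rebuilding of arginine from citrulline. Ornithine in turn feeds the polyamines putrescine, spermidine and spermine. In mouse macrophages high Nos2 and high Arg1 are often used as markers of opposite states of activation.

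Depth was nearly even, with total counts of 20094647 to 20687289 in the control and 19257131 to 20358017 in the ox-LDL libraries. Levels are given as TMM-normalized CPM, counts scaled to a common library size and made comparable between libraries, and comparisons between genes are made only in FPKM, which also divides by transcript length. The TMM factors were 0.916 to 1.18 in the control group and 0.593 to 1.19 in the ox-LDL group, and the lowest belonged to ox-LDL replicate 2. In that library the trend of expression on transcript length was between -0.43 and 0.95 on the log2 scale at the lengths of the 9 genes tested, whereas it was between -0.53 and 0.53 in the other libraries. Control replicate 5 stood apart in another way. The summed level of 8 LPS-inducible genes outside the pathway was 115 CPM (scaled by library size alone, as are the marker sums that follow) in that library, at most 23.6 CPM in the other controls and 2648 to 12617 CPM in the ox-LDL libraries. Each result that rests on these libraries is therefore given with and without them.

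Macrophage markers (7 genes) summed to 23065 to 42749 CPM in the control and 12988 to 28177 CPM in the ox-LDL libraries, most of it Lyz2, which had a log2 fold change of -0.67 (edgeR adjusted p = 0.371). Of the 7 genes Adgre1, which encodes F4/80, was called higher (269 to 1135 CPM) and none lower. The other marker sums were far smaller. Neutrophil markers (8 genes) summed to 7.96 to 16.6 CPM in the control and 13.5 to 90.9 CPM in the ox-LDL libraries, most of it S100a8, whereas Elane had at most 1 count and Mpo at most 2 counts in any library. By TMM-normalized mean Camp was also higher (0.0198 to 0.540 CPM), but Ltf (0.960 to 0.0653 CPM) and Cxcr2 (0.467 to 0.0560 CPM) were lower. S100a9 and Retnlg changed little. The sum of 6 mesothelial and stromal markers was 14.2 to 43.8 CPM against 60.0 to 127 CPM, most of it Dcn, while Upk3b was lower. That of 4 dendritic cell markers was 0.506 to 1.32 CPM against 2.38 to 13.0 CPM. Its largest part in the ox-LDL libraries, by TMM-normalized mean, was Ccr7 (0.157 to 4.89 CPM). The remaining sums were 5.10 to 9.90 against 2.84 to 6.42 CPM for resident peritoneal macrophages (4 genes), 1.13 to 2.85 against 0.659 to 3.26 CPM for B cells (4 genes), at most 0.3 against at most 0.304 CPM for T cells (3 genes) and 2.91 to 8.11 against 0.574 to 1.95 CPM for eosinophils and mast cells (5 genes). The resident markers went in different directions by TMM-normalized mean. Timd4 was called higher (0.142 to 1.37 CPM), whereas Icam2 (4.82 to 1.96 CPM) and Selp (1.03 to 0.0821 CPM) were lower. Gata6 changed little (1.17 to 1.02 CPM). No listed marker was at 0 in all 10 libraries. The part of other cell types in the results below was not tested, and in bulk RNA fewer cells of a type and less RNA per cell cannot be told apart.

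Promoter sequences from RefSeq (build GRCm38.p6, 250 bases before to 50 bases after the start) were matched for 5 of the 10 genes, namely Ass1, Gch1, Odc1, Sat1 and Ddah2. The promoters of Ass1 and Gch1 are shown because these genes rose in the ox-LDL libraries (below, with the values). The Ass1 window lies at chr2:31470020-31470319 on the plus strand and the Gch1 window at chr14:47189364-47189663 on the minus strand, each written 5′ to 3′ along the gene. Capitals mark the matches to the motifs searched.
Ass1: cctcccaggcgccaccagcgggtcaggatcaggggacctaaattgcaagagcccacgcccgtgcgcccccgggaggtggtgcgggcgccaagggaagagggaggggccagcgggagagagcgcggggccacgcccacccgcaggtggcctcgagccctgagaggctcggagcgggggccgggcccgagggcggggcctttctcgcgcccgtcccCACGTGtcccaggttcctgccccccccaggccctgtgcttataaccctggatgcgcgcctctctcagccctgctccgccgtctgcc
Gch1: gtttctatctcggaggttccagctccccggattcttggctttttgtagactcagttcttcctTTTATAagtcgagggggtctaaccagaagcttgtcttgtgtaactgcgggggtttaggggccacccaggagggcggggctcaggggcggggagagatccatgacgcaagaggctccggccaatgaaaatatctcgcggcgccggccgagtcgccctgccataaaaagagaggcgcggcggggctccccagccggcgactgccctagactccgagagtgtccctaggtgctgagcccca
Against a median GC content of 52.7% over the 32851 promoters in the table, the Ass1 window had 74.0% and the Gch1 window 60.3%. The capitals in Ass1 are the palindromic E-box CACGTG, 36 to 31 bases before the start, a motif that 7.15% of all promoters hold. Both strands of it contain the overlapping hypoxia response core ACGTG, which 19.6% hold. The capitals in Gch1 match the letters searched for a TATA box (TATAAA) on the opposite strand, 188 to 183 bases before the start, which 13.6% hold. This is a match in letters alone, and its use as a TATA box was not tested. Neither window held the letters searched on both strands for kappa B (GGANTTTCC, in 1.25% of all promoters), the interferon response element (GAAANNGAA, 8.56%), C/EBP (TTNCNNNAA, 36.6%) or the ATF4 amino acid response element (TGATGNAA, 3.97%).

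Of the 9 genes tested, 5 rose in the ox-LDL libraries and 0 fell (edgeR quasi-likelihood test with Benjamini-Hochberg adjustment over all genes, threshold 0.01). Of the 12654 genes tested, 14.7% passed that threshold, 9.4% as higher and 5.35% as lower. The 5 were Nos2, Slc7a2, Ass1, Arg2 and Gch1. Each of them had a log2 fold change above 2, a further cut that 4.78% of all genes passed as higher and 1.93% as lower. In each of the 5 the lowest ox-LDL library lay above the highest control library, as in 11.6% of all genes, with 9.11% the other way around and 20.7% in either direction. The median log2 fold change over the 9 genes was 3.60, against 0.10 over all genes. Arg1, Odc1, Asl and Sat1 did not pass the test. Without control replicate 5, the same 5 genes were called higher and 0 lower, with 8.16% and 4.63% of all genes.

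**Figure D1:**
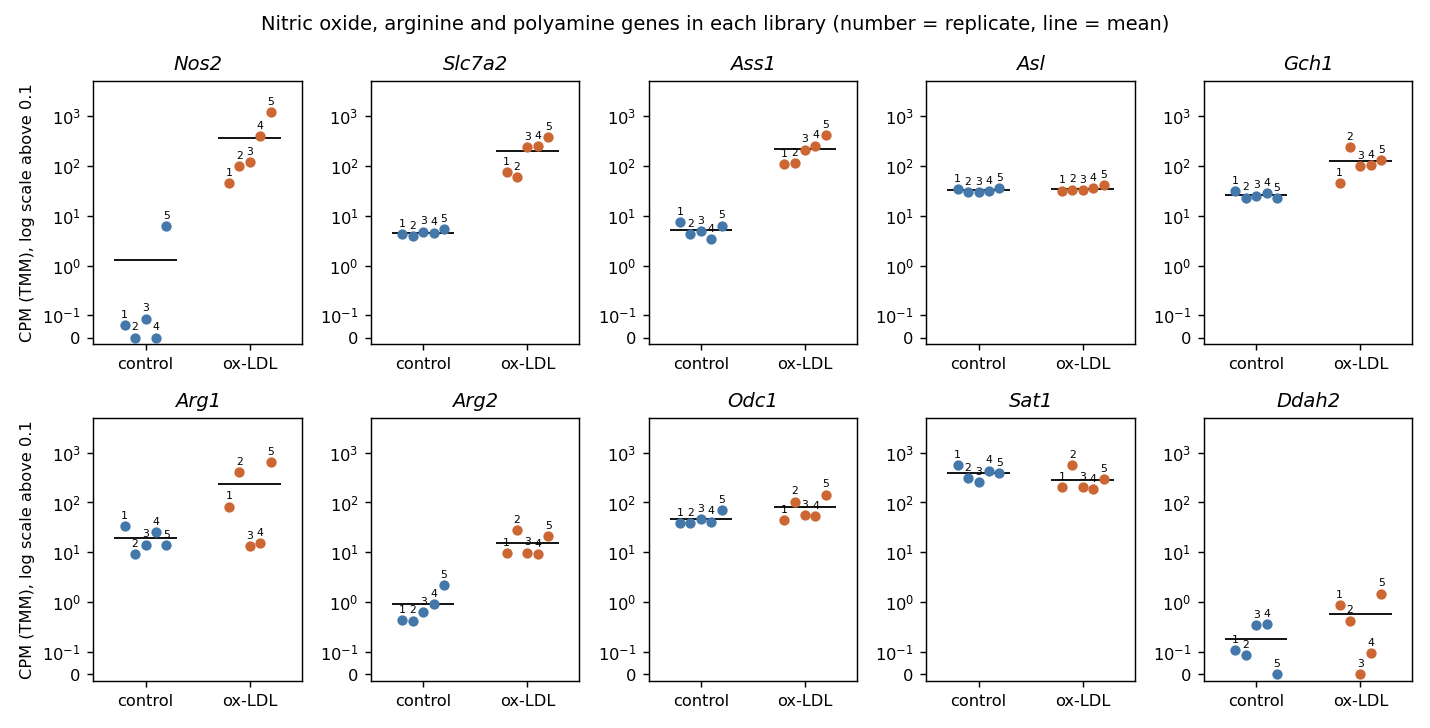
TMM-normalized CPM of the 10 genes in each library, on a scale that is logarithmic above 0.1 CPM, with the control and ox-LDL groups side by side, numbers for replicates and a line for each group mean. In Nos2, Slc7a2, Ass1, Arg2 and Gch1 the groups do not overlap, whereas Arg1 spans 13.2 to 647 CPM within the ox-LDL group.

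Nos2 (NCBI gene 18126; mm9 chromosome 11, 78734289 to 78773756, plus strand) encodes inducible nitric oxide synthase. Control replicates 1 to 5 had 0.0553, 0, 0.0856, 0 and 6.26 CPM, which came from 1, 0, 2, 0 and 144 counts. Ox-LDL replicates 1 to 5 had 44.6, 99.5, 117, 388 and 1176 CPM, from 1025, 1162, 2405, 8113 and 19694 counts. The gene was thus near 0 in 4 control cultures, and even the highest control lay below every ox-LDL culture. The means were 1.28 ± 2.78 and 365 ± 473 CPM (SD, n = 5 each), and the log2 fold change was 8.13 (SE 1.69, edgeR adjusted p = 0.00408), a 280-fold difference. By log2 fold change Nos2 ranked 15 of 12654 genes, but by p-value it ranked 1343.

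The size of this difference was set by control replicate 5. Against that library alone, the ox-LDL mean was 58.4-fold higher and the lowest ox-LDL library 7.13-fold higher. Without it, the remaining controls had at most 2 counts, so that only a lower bound can be given. With 3 counts in each library taken as the limit, equal to a mean of 0.144 CPM, Nos2 was at least 2531-fold higher in the ox-LDL mean (a log2 of at least 11.31) and at least 309-fold higher in the lowest ox-LDL library. The fit without control replicate 5 gave an adjusted p of 2.18e-04 in edgeR. Leaving out 1 of the other controls ended the call, with edgeR adjusted p-values of 0.0124, 0.0101, 0.0116 and 0.0112 without control replicates 1, 2, 3 and 4. Without ox-LDL replicate 5, the highest library, the log2 fold change was 6.94 (edgeR adjusted p = 0.00845).

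**Figure D2:**
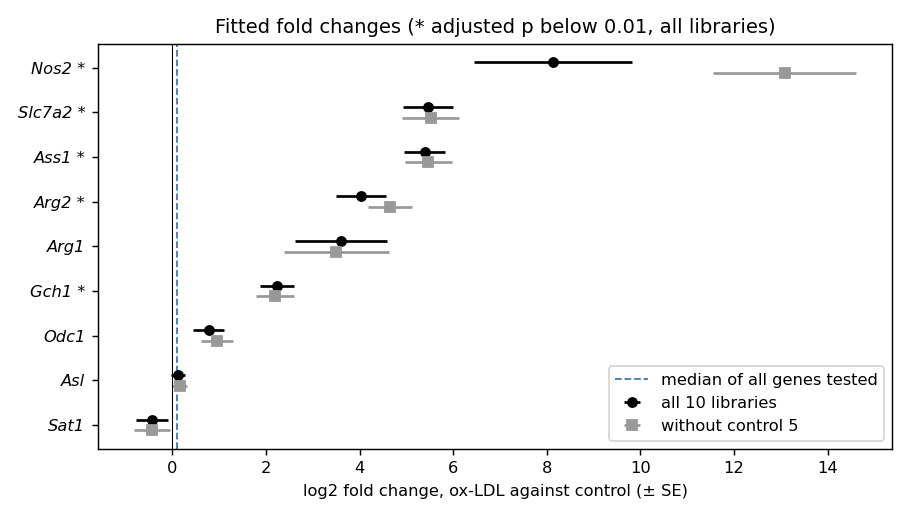
Log2 fold change of the 9 tested genes, ox-LDL against control, with its SE, from edgeR with all 10 libraries (circles) and without control replicate 5 (squares); the dashed line is the median of all genes tested, 0.10. The Nos2 square at 13.09 depends on the prior count and is no estimate of size, while Arg2 moves from 4.03 to 4.65 and Ass1 from 5.39 to 5.47.

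Among the genes for the supply of arginine, Slc7a2 and Ass1 rose and Asl did not pass the test. Slc7a2 (NCBI gene 11988; mm9 chromosome 8, 41947750 to 42007662, plus strand) encodes the cationic amino acid transporter CAT-2, through which activated macrophages take up arginine. It was at 4.2, 3.85, 4.79, 4.58 and 5.34 CPM in control replicates 1 to 5 and at 73.3, 59.2, 240, 251 and 381 CPM in ox-LDL replicates 1 to 5. The ox-LDL cultures fell into a lower pair (replicates 1 and 2) and a higher trio. The means were 4.55 ± 0.569 and 201 ± 135 CPM (SD, n = 5 each). The log2 fold change was 5.46 (SE 0.53, edgeR adjusted p = 3.4e-05), or 44.1-fold.

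Ass1 (NCBI gene 11898; mm9 chromosome 2, 31325727 to 31376192, plus strand) encodes argininosuccinate synthase, the enzyme that condenses citrulline with aspartate and is commonly held to limit the rebuilding of arginine. The control replicates 1 to 5 had 7.36, 4.19, 4.83, 3.35 and 6.30 CPM and the ox-LDL replicates 1 to 5 had 109, 115, 210.2, 254 and 406 CPM. All ox-LDL cultures lay well above all controls, with replicates 1 and 2 again the lowest. The means were 5.21 ± 1.62 and 219 ± 122 CPM (SD, n = 5 each). The log2 fold change was 5.39 (SE 0.44, edgeR adjusted p = 1.4e-05), or 42.0-fold. Of the 10 genes Ass1 had the lowest p-value, rank 35 among all genes tested.

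Asl (NCBI gene 109900; mm9 chromosome 5, 130487128 to 130501002, minus strand) encodes argininosuccinate lyase, the next enzyme, which releases arginine. It had 34.2, 30.1, 29.9, 31.1 and 35.1 CPM in control replicates 1 to 5 and 31.9, 33.1, 32.5, 36.0 and 41.1 CPM in ox-LDL replicates 1 to 5. The ranges overlapped, and the log2 fold change was 0.12 (SE 0.14, edgeR adjusted p = 0.576), with a sign that depended on the scaling of the libraries (-0.05 with library size alone and -0.03 with upper-quartile factors). In FPKM, the level of Ass1 was 0.104 to 0.208 times that of Asl in the controls. In ox-LDL replicates 1 to 5 it was 3.31, 3.28, 6.21, 6.80 and 9.33 times that of Asl. The order of the consecutive enzymes was thus opposite in the 2 groups, in every library.

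Gch1 (NCBI gene 14528; mm9 chromosome 14, 47773570 to 47809088, minus strand) encodes GTP cyclohydrolase, the entry step of tetrahydrobiopterin synthesis. It had 30.7, 23.1, 25.1, 27.9 and 22.4 CPM in control replicates 1 to 5 and 44.3, 235, 99.2, 103 and 128 CPM in ox-LDL replicates 1 to 5. Replicate 2 was the highest ox-LDL culture and replicate 1 the lowest, an order unlike that of Nos2. The means were 25.8 ± 3.45 and 122 ± 70.4 CPM (SD, n = 5 each). The log2 fold change was 2.24 (SE 0.36, edgeR adjusted p = 8.4e-04), or 4.72-fold. Without ox-LDL replicate 2 it was 1.82 (edgeR adjusted p = 2.74e-04).

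The 2 arginase genes differed in how evenly they were expressed among the ox-LDL cultures. Arg2 (NCBI gene 11847; mm9 chromosome 12, 80231764 to 80257288, plus strand), which encodes the mitochondrial arginase, was at 0.443, 0.428, 0.642, 0.927 and 2.22 CPM in control replicates 1 to 5 and at 9.61, 28.0, 9.85, 9.19 and 20.8 CPM in ox-LDL replicates 1 to 5. No ox-LDL culture reached down to the controls, of which replicate 5 was the highest. The means were 0.931 ± 0.746 and 15.5 ± 8.53 CPM (SD, n = 5 each). The log2 fold change was 4.03 (SE 0.53, edgeR adjusted p = 2.39e-04), or 16.4-fold, and 4.65 without control replicate 5 (edgeR adjusted p = 1.15e-04). Without ox-LDL replicate 2, its highest library, it was 3.67 (edgeR adjusted p = 1.79e-04).

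Arg1 (NCBI gene 11846; mm9 chromosome 10, 24635014 to 24647276, minus strand) encodes the cytosolic arginase. It was at 33.6, 9.07, 14.3, 25.3 and 14.2 CPM in control replicates 1 to 5 and at 82.6, 410, 13.2, 15.5 and 647 CPM in ox-LDL replicates 1 to 5. Ox-LDL replicates 1, 2 and 5 lay above every control, whereas replicates 3 and 4 lay within the control range. The means were 19.3 ± 9.95 and 234 ± 283 CPM (SD, n = 5 each), and the log2 fold change of 3.60 (SE 0.99, edgeR adjusted p = 0.0189) did not pass the threshold. It was 2.81 (edgeR adjusted p = 0.0537) without ox-LDL replicate 5, 3.26 (0.0265) without ox-LDL replicate 2 and 0.90 (0.255) without both. Without ox-LDL replicate 3 or 4, the low cultures, it was 3.91 and 3.90 and passed (edgeR adjusted p = 0.00822 and 0.00892).

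The ratio of Nos2 to Arg1 therefore ran over a wide range among cultures given the same treatment. In FPKM it was 0.180, 0.0876, 3.05, 8.76 and 0.609 in ox-LDL replicates 1 to 5. Nos2 exceeded Arg1 in replicates 3 and 4 alone, and the same held against the sum of both arginases, with ratios of 0.161, 0.0817, 1.71, 5.37 and 0.589. In control replicate 5 the ratio of Nos2 to Arg1 was 0.148, and in the other controls it was 0 to 0.0024. Replicate 5 of the ox-LDL group had the highest level of both genes, 245 FPKM of Nos2 and 402 FPKM of Arg1. The ratio of Arg1 to Arg2 was 8.20, 14.0, 1.27, 1.59 and 29.5 in ox-LDL replicates 1 to 5, so that the arginase transcripts were at similar levels in replicates 3 and 4. These ratios are given as a description, with no test.

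**Figure D3:**
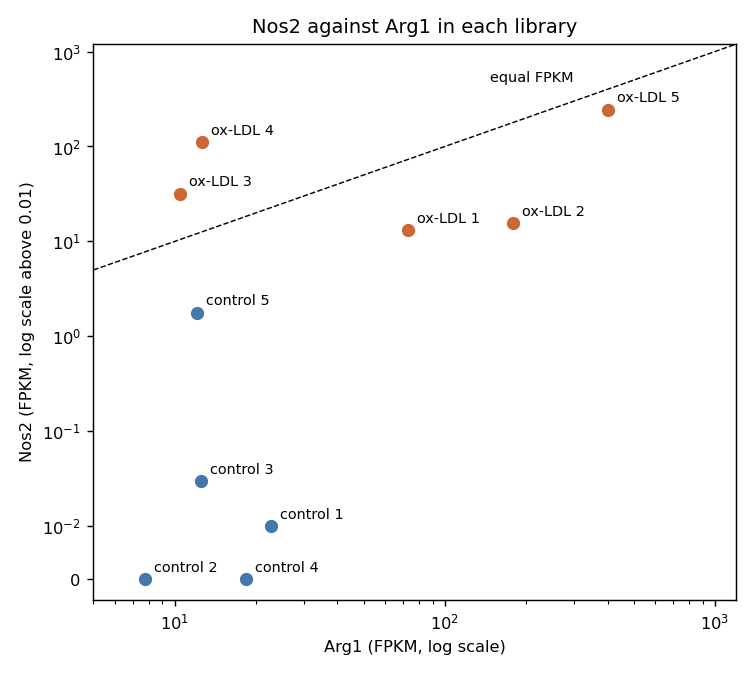
Nos2 against Arg1 in FPKM in each library, both on logarithmic scales (the Nos2 axis above 0.01), with points numbered by replicate and coloured by group. Ox-LDL replicates 3 and 4 lie at 10.4 and 12.6 FPKM of Arg1, inside the control range of 7.74 to 22.6, while ox-LDL replicates 1, 2 and 5 lie at 73.1 to 402.

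For polyamines, Odc1 and Sat1 did not pass the test in either direction. Odc1 (NCBI gene 18263; mm9 chromosome 12, 17551679 to 17558308, plus strand) encodes ornithine decarboxylase, which makes putrescine. It had 38.5, 39.1, 46.7, 41.2 and 69.0 CPM in control replicates 1 to 5 and 43.8, 104, 55.2, 54.1 and 144 CPM in ox-LDL replicates 1 to 5. By CPM the 2 highest libraries were ox-LDL replicates 2 and 5, and control replicate 5 lay above the other 3 ox-LDL cultures. The place of ox-LDL replicate 2 in this order rests on its TMM factor, since in FPKM it had 25.4, below control replicate 5 at 32.8 and close to ox-LDL replicates 3 and 4 at 24.4 and 24.8. The log2 fold change was 0.77 (SE 0.33, edgeR adjusted p = 0.106). It was 0.95 (edgeR adjusted p = 0.0664) without control replicate 5, 0.62 (0.149) without ox-LDL replicate 2, 0.47 (0.287) without ox-LDL replicate 5 and 0.07 (0.787) without both of the latter.

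Sat1 (NCBI gene 20229; mm9 chromosome X, 151647675 to 151650992, minus strand) encodes spermidine/spermine acetyltransferase, which starts polyamine breakdown and export. It was at 556, 304, 259, 435 and 387 CPM in control replicates 1 to 5 and at 203, 554, 200, 184 and 295 CPM in ox-LDL replicates 1 to 5. By CPM, ox-LDL replicate 2 was level with the highest control, whereas replicates 1, 3 and 4 lay below all controls. In FPKM, which does not use the TMM factor, ox-LDL replicate 2 had 309.65, above control replicate 3 (291) and below the other controls (333 to 484). The log2 fold change was -0.43 (SE 0.34, edgeR adjusted p = 0.381). Without ox-LDL replicate 2 it was -0.86 (edgeR adjusted p = 0.0163), and without ox-LDL replicates 2 and 5 it was -1.04 and passed (edgeR adjusted p = 0.00709). Sat1 is the shortest of the 9 genes tested, at 1030 bases, and the length trend of ox-LDL replicate 2 was 0.95 on the log2 scale at this length. In FPKM, Sat1 was 12.8 to 33.3 times as abundant as Odc1 in the controls and 10.7, 12.2, 8.35, 7.82 and 4.77 times in ox-LDL replicates 1 to 5, so that each ox-LDL ratio lay below each control ratio.

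Ddah2 (NCBI gene 51793; mm9 chromosome 17, 35195980 to 35199040, plus strand) belongs to the family that degrades methylarginines, natural inhibitors of nitric oxide synthases. It had 0.111, 0.0856, 0.342, 0.361 and 0 CPM in control replicates 1 to 5 and 0.870, 0.428, 0, 0.0957 and 1.49 CPM in ox-LDL replicates 1 to 5. With estimated counts of at most 8.01 in the control and 24.5 in the ox-LDL libraries it did not pass the filter and was not tested. The ranges of the groups overlapped.

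By level per length, the order of the genes differed between the groups. In the controls the median FPKM was 407 for Sat1, 24.0 for Asl, 18.6 for Odc1, 12.5 for Arg1, 10.3 for Gch1, 3.78 for Ass1, 0.74 for Slc7a2, 0.59 for Arg2, 0.07 for Ddah2 and 0.01 for Nos2. Among neighbours in this order, the ranges over the 5 libraries were separate between Sat1 and Asl, between Gch1 and Ass1 and between Ass1 and Slc7a2. In the ox-LDL group the median FPKM was 232 for Sat1, 149.65 for Ass1, 73.1 for Arg1, 41.0 for Gch1, 33.9 for Slc7a2, 31.8 for Nos2, 24.8 for Odc1, 24.3 for Asl, 8.91 for Arg2 and 0.19 for Ddah2. There the ranges of neighbours overlapped down to Asl, and were separate between Asl and Arg2 and between Arg2 and Ddah2. By median Nos2 was the lowest of the 10 genes in the controls and the sixth in the ox-LDL group, where its range was 13.2 to 245 FPKM. In control replicate 5, however, Nos2 was at 1.78 FPKM, above Slc7a2 at 0.81 and Ddah2 at 0 FPKM.

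The spread among the ox-LDL cultures was wide for these genes, but unevenly so. The SD of log2 CPM within the ox-LDL group was 2.59 for Arg1 and 1.85 for Nos2, larger than in 99.9% and 99.4% of all genes tested, whose median was 0.52. It was 1.19 for Slc7a2, between 0.66 and 0.86 for Gch1, Ass1, Arg2, Odc1 and Sat1, and 0.15 for Asl, where 2.03% of genes had a smaller SD. In FPKM Asl was less even, since 4 ox-LDL cultures had 24.1 to 27.5 and replicate 2 had 13.7. The highest ox-LDL culture exceeded the lowest by 49.1-fold for Arg1, 26.4-fold for Nos2, 6.45-fold for Slc7a2, 5.31-fold for Gch1, 3.72-fold for Ass1 and 1.29-fold for Asl.

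Which culture was high, by CPM, also differed by gene. Nos2, Slc7a2 and Ass1 were highest in ox-LDL replicates 5 and 4 and lowest in replicates 1 and 2. Arg1, Arg2 and Odc1 were highest in ox-LDL replicates 2 and 5, with Arg1 at 2.31 and 2.97, Arg2 at 1.51 and 1.08 and Odc1 at 0.92 and 1.38 above the group median on the log2 scale. Gch1 and Sat1 had their highest values in the same 2 cultures, at 1.19 and 0.31 for Gch1 and at 1.45 and 0.54 for Sat1. Orders that place ox-LDL replicate 2 high rest in part on its TMM factor of 0.593. In FPKM, replicates 2 and 5 were still the highest for Arg1, Arg2, Odc1 and Sat1, with Odc1 in replicate 2 at 25.4 against 24.8 in replicate 4, whereas for Gch1 replicate 2 (52.7) was followed by replicate 4 (43.4) and then replicate 5 (41.0). In ox-LDL replicate 2, the length trend alone was 0.57 at the length of Arg1 (1327 bases), 0.65 at that of Arg2 (1261 bases) and -0.34 at that of Slc7a2 (7446 bases), and its part in these orders was not tested. With the length trend of every library removed, Arg1 had a log2 fold change of 3.66 (edgeR adjusted p = 0.0101) and Nos2 one of 8.11 (0.00172). The summed LPS-inducible genes were at 5263, 2648, 6802, 7198 and 12617 CPM in ox-LDL replicates 1 to 5, the lowest in replicate 2 and the highest in replicate 5. The neutrophil marker sum, most of it S100a8, was at 90.9 CPM in replicate 2, at 13.5 CPM in replicate 1 and at 55.1 to 69.2 CPM in the others. Of the same markers Ltf and Cxcr2 had lower means in the ox-LDL group than in the control.

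**Figure D4:**
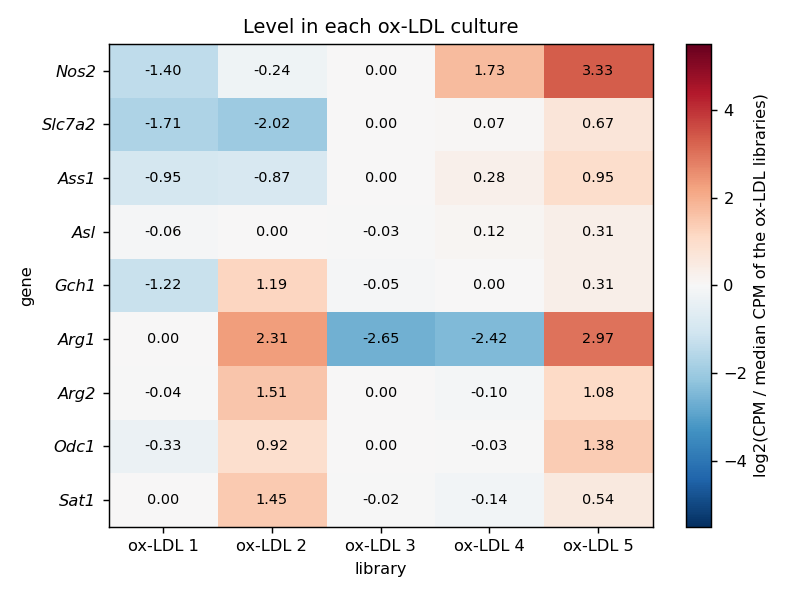
Level of the 9 tested genes in each of the 5 ox-LDL cultures, as the log2 of CPM over the median CPM of the ox-LDL libraries, by colour and by number. Arg1 runs from -2.65 in replicate 3 to 2.97 in replicate 5 and Nos2 from -1.40 in replicate 1 to 3.33 in replicate 5, whereas Asl stays between -0.06 and 0.31.

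The genes whose pattern over the 10 libraries was nearest to that of Nos2, by the root mean square difference of log2 CPM centred per gene among 11254 genes, were Acod1 (0.98), Ptgs2 (1.03), Serpina3f (1.05), Gbp5 (1.06) and Ccl5 (1.25), against a median of 5.10 over all genes. Acod1 encodes the enzyme that makes itaconate, Ptgs2 an inducible cyclooxygenase and Ccl5 a chemokine. For Arg1 the nearest were Phf11a (0.92), Phf11b (1.02), Cd86 (1.02), Xaf1 (1.02) and Ifi27l2a (1.03), against a median of 2.12. Cd86 encodes a costimulatory molecule. Since all 10 libraries enter, genes that rose by a similar amount are near each other by construction. The median over all genes grows with the change of Nos2 or Arg1 itself, so the 2 medians are not compared.

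The rest of the pathway was listed gene by gene. Outside the 10 genes and known regulators, 65 genes were listed, 63 had a row and 51 were tested. Of these 51, 5 rose and 6 fell, against 9.4% and 5.35% of all genes tested, and the median log2 fold change was -0.20 against 0.10 over all genes. Leaving out single libraries moved these counts to between 2 and 7 that rose and between 3 and 12 that fell, with 12 that fell without ox-LDL replicate 2 and 2 that rose without control replicate 4. With limma in place of edgeR, 2 rose and 7 fell on log2(FPKM + 1), and 1 rose and 7 fell on log2(FPKM + 0.1).

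Among genes next to Nos2 and Gch1, Nos3 (endothelial nitric oxide synthase) was at 0.389 CPM in the control and 0.939 CPM in the ox-LDL mean (log2 fold change 1.18, edgeR adjusted p = 0.184), and Nos1 was not tested. Of 6 tested tetrahydrobiopterin genes 1 rose, Gch1, and 1 fell, Qdpr, against 9.4% and 5.35% of all genes tested. Qdpr, which regenerates the cofactor, fell from 94.9 ± 24.8 to 33.1 ± 6.13 CPM (SD, n = 5 each), with a log2 fold change of -1.52 (SE 0.22, edgeR adjusted p = 4.48e-04). Pts, the enzyme after Gch1, had -1.05 (edgeR adjusted p = 0.0459).

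Of 7 tested arginine transport genes 3 rose, Slc7a2 beside Slc3a2 and Slc7a6, against 9.4% of all genes tested. Slc3a2, the shared heavy chain of several amino acid transporters, rose from 112 ± 35.7 to 425 ± 222 CPM (log2 fold change 1.92, SE 0.37, edgeR adjusted p = 0.00255, n = 5 each). Slc7a6, a light chain that pairs with it, rose from 4.17 ± 1.24 to 10.7 ± 2.82 CPM (1.36, SE 0.26, edgeR adjusted p = 0.00266). Slc7a7, another such light chain, had a log2 fold change of 0.07 (edgeR adjusted p = 0.866). Slc7a2 thus changed most of the 3, in log2 fold change. In the arginine recycling and urea cycle list, 4 genes were tested, all of them described above, and Otc and Nags had too few counts.

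Of 8 tested genes of polyamine synthesis and control 1 rose, Azin2, an antizyme inhibitor, against 9.4% of all genes tested. Azin2 went from 0.462 ± 0.196 to 1.84 ± 0.326 CPM (log2 fold change 1.99, SE 0.36, edgeR adjusted p = 0.00187, n = 5 each). Oaz1, the antizyme that directs ornithine decarboxylase to degradation, had -0.03 (edgeR adjusted p = 0.966). Of 7 genes of polyamine breakdown and export 1 rose and 1 fell, against 9.4% and 5.35% of all genes tested. Smox, which oxidizes spermine, rose from 13.2 ± 1.43 to 62.0 ± 25.3 CPM (2.23, SE 0.28, edgeR adjusted p = 1.79e-04). Slc18b1, a vesicular polyamine transporter, fell from 1.25 ± 0.173 to 0.288 ± 0.214 CPM (-2.02, SE 0.44, edgeR adjusted p = 0.00524). Odc1 and Sat1 were thus not among the polyamine genes that passed the test. No gene was called among 3 for hypusine, 6 tested from ornithine to proline and glutamate and 4 tested for methylarginines. Over all genes tested, 14.7% were called in either direction. EdgeR adjusted p-values were 0.923 for Eif5a, 0.0117 for Oat (log2 fold change -0.57) and 0.224 for Prmt1.

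The list of other arginine users held 5 tested genes, of which Gamt and the creatine kinase gene Ckb do not themselves act on arginine. Of the 5, 2 fell, against 5.35% of all genes tested. Gatm, which takes arginine into creatine synthesis, had a log2 fold change of -0.25 (edgeR adjusted p = 0.691). Gamt, which completes creatine synthesis, fell from 11.3 ± 5.75 to 1.19 ± 0.878 CPM (log2 fold change -3.21, SE 0.57, edgeR adjusted p = 0.00156, n = 5 each). Padi2, which converts arginine in proteins to citrulline, fell from 27.5 ± 10.7 to 3.42 ± 0.660 CPM (-3.0, SE 0.31, edgeR adjusted p = 4.38e-05). Of 8 tested genes of nitric oxide sensing and protection 1 rose and 2 fell, against 9.4% and 5.35% of all genes tested. Txnrd1, thioredoxin reductase, rose from 89.3 ± 8.60 to 259 ± 127 CPM with overlapping groups (1.53, SE 0.34, edgeR adjusted p = 0.00633). Nostrin, a nitric oxide synthase trafficking protein, fell from 33.0 ± 8.19 to 12.9 ± 5.04 CPM (-1.35, SE 0.29, edgeR adjusted p = 0.00439). Calm2, a gene for calmodulin, a subunit of nitric oxide synthases, fell from 981 ± 290 to 302 ± 186 CPM (-1.70, SE 0.38, edgeR adjusted p = 0.00645).

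Of 11 tested regulators known to act on Nos2 or Arg1, 5 rose and 0 fell, against 9.4% and 5.35% of all genes tested. They were listed with earlier results of these data known. Against 0.10 over all genes, their median log2 fold change was 1.03. Irf1 had the largest log2 fold change of these, 4.70 (SE 0.41, edgeR adjusted p = 2.14e-05), and rose from 24.0 ± 5.03 to 625 ± 347 CPM. Among the others that rose were Hif1a (2.30, edgeR adjusted p = 0.00448), Cebpb (2.19, 2.76e-04) and Stat3 (1.85, 0.0021). Atf4 had 0.88 (edgeR adjusted p = 0.0589).

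**Figure D5:**
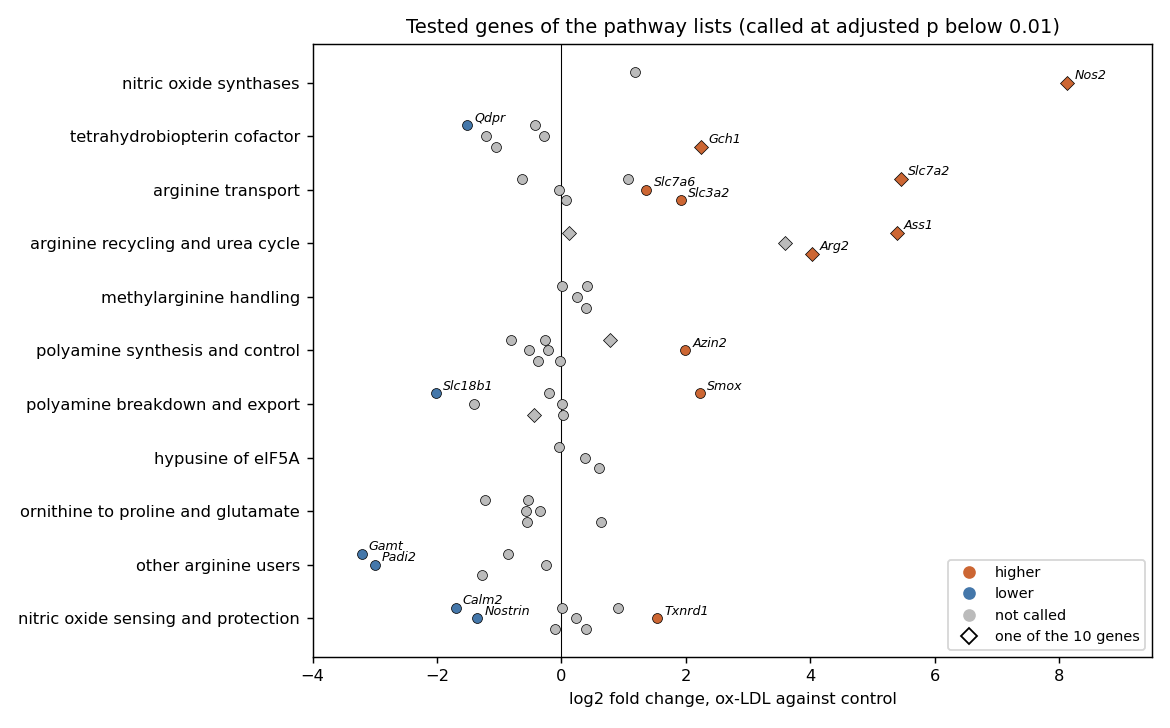
Log2 fold change, ox-LDL against control, of every tested gene in the pathway lists other than the regulators, 1 point a gene and 1 line a list, coloured by whether edgeR called it higher, lower or not at an adjusted p below 0.01, with diamonds for the 10 genes. Nos2 at 8.13, Slc7a2 at 5.46 and Ass1 at 5.39 lie to the right of every other gene listed, and Gamt at -3.21 lies farthest to the left.

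Some of these values could include reads of other genes. The counting may have divided reads between genes, since the estimated counts were whole numbers in all 10 libraries for Nos2, Arg1, Asl and Slc7a2 but in 8 for Gch1, 5 for Ass1, 4 for Arg2, 3 for Sat1, 2 for Ddah2 and 0 for Odc1. In the mm9 annotation Arg2 overlaps Vti1b and Slc7a2 overlaps the noncoding Gm17475, both in antisense orientation, and Odc1 holds the small nucleolar RNA SNORA42 on its own strand. Since the sources do not say if reads were counted by strand, their reads cannot be told apart. Calm2 belongs to a family of similar genes and is uncertain for the same reason.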

How the data were processed

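RNA was extracted from 5 control and 5 ox-LDL cultures, one library each, and sequenced on the BGISEQ-500 platform. Per the submitters' processing notes, HISAT2 2.0.5, SAMtools 1.4, StringTie 1.3.3.13 and FastQC were used, with genome build mm9. The authors deposited estimated counts per gene, not normalized, of which 13.6% of values were not whole numbers, and a second value per gene and library. The transcript length implied by the count, that value and the library total was nearly the same in every library (median coefficient of variation 0.686% over 2583 rows), so the second value deposited by the authors was treated as FPKM. The counting step is not given in the sources used here.

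Groups came from the labels. Rows of 9788 circular RNAs were left out. Estimated counts were rounded, filtered with filterByExpr, which left 12654 genes, scaled by TMM and tested with edgeR 4.0.16 (quasi-likelihood, robust, R 4.3.3) with Benjamini-Hochberg adjustment over all genes tested, called at an adjusted p below 0.01. The study also cut at an absolute log2 fold change above 2, which is given where used. The biological coefficient of variation was 37.3%. CPM are TMM-normalized, except for marker sums. Symbols were taken from RefSeq and positions from GENCODE on NCBIM37, which is mm9. Genes named were the 10 genes, called genes of the pathway lists with up to 2 others of highest FPKM a list, the markers and the 5 genes nearest to Nos2 and to Arg1, among those with a symbol. The 10 genes and all lists were chosen with earlier results of these data known. Alternatives were DESeq2 1.42.0, limma 3.58.1 (voom, and log2(FPKM + 1) or log2(FPKM + 0.1), for genes with 5 or more libraries at 1 FPKM), other scalings, filters and thresholds, removal of length trends, a replicate block and each library left out in turn. The procedure was tested on simulated data. Some single items of the lists are not reported here.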

Additional observations from a re-analysis of the deposited data

Results flagged for a closer look

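Among the 9 tested genes and Ddah2, 20 groups of 5 libraries were examined for a library whose gap to its nearest neighbour exceeded 0.71 of the range of its group. For independent, normally distributed values chance would mark about 1 in 20 groups, a condition that was not checked for these CPM. Just under the limit were Sat1 in ox-LDL replicate 2 (0.701 of the range) and Nos2 in ox-LDL replicate 5 (0.696). The number marked was 3, all of them control replicate 5 as the highest control library, so the marks share 1 library. That library had been singled out for Nos2 before this check. Nos2 was at 6.26 CPM there, against at most 0.0856 CPM in the other controls, a gap of 0.986 of the range. Arg2 was at 2.22 CPM, with the next control at 0.927 CPM (0.721 of the range). Odc1 was at 69.0 CPM, with the next control at 46.7 CPM (0.731 of the range). The same library had the highest sum of LPS-inducible genes among the controls, 115 CPM against at most 23.6 CPM.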

How the results depend on the processing

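Over up to 25 alternatives, Ass1 (log2 fold change 4.72 to 5.56), Slc7a2 (3.63 to 5.68), Arg2 (2.69 to 4.65) and Gch1 (1.62 to 2.45) were called higher in each that tested them, and Odc1 (0.07 to 0.95) and Asl in none. Sat1 was called in 1 alternative. Nos2 was positive in all 24 that tested it (5.23 to 13.09), and its call was lost in 5 of them, 4 that left out a control and the test with no filter on low counts (8.07, adjusted p = 0.0344). Without single libraries it ran from 6.94 to 13.09, with adjusted p from 2.18e-04 to 0.0124. Arg1 gained a call with DESeq2 (3.63, adjusted p = 0.00183) and without ox-LDL replicate 3 or 4, and ran from 2.81 to 3.91 without single libraries. Over all its alternatives its adjusted p was 0.00183 to 0.255. Asl turned negative with upper-quartile factors (-0.027), library size alone (-0.047), limma on log2(FPKM + 1) (-0.069), on log2(FPKM + 0.1) (-0.073) and on log2(FPKM + 1) with no filter (-0.069).

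The number of the 10 genes called higher was 5, and 4 to 6 without single libraries. It was 3 with at least 10 counts in every library, which Nos2 and Arg2 did not reach. The number called lower was 0, and 1 without ox-LDL replicates 2 and 5, which was chosen after seeing the data. Over all genes, 1866 were called, 1262 to 3257 without single libraries (3257 without ox-LDL replicate 2), 3365 at an adjusted p below 0.05, 849 with an absolute log2 fold change above 2, 3253 with DESeq2, 2868 with length trends removed, 1026 with limma on log2(FPKM + 1) with no filter and 3228 without ox-LDL replicates 2 and 5. The cause of these changes was not tested. The 51 other pathway genes were varied in the same way after seeing the data, with 1 to 7 that rose and 3 to 13 that fell over all alternatives, the lowest 1 with limma on log2(FPKM + 0.1) or on log2(FPKM + 1) with no filter and the highest 13 without ox-LDL replicates 2 and 5.

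Replicate numbers recur in both groups, but the sources used here do not say if they pair the samples. The correlations that follow are a description and do not settle this. Deviations of libraries with the same number correlated at 0.02, -0.27, 0.44, -0.28 and 0.41 for numbers 1 to 5, and only number 5 correlated best with its own. With the replicate number as a block, 1434 genes were called over all genes, the 10 genes gave 5 higher and 0 lower, Nos2 had 9.84 (adjusted p = 2e-04) and Arg1 had 2.10 (adjusted p = 0.232). Control levels of Nos2 lay at or under the limit of 3 counts in 4 of 5 libraries.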
